A study of Mus musculus with 6 samples.

Results

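The alpha-arrestins are a family of adaptor proteins, represented in the mouse by Arrdc1, Arrdc2, Arrdc3, Arrdc4, Arrdc5 and Txnip. The genes described here are the 5 of these named Arrdc1 to Arrdc4 and Txnip, chosen by the FPKM of Arrdc3, which stood lower in cells exposed to a static magnetic field than in untreated cells, to see whether that difference was shared by its relatives. Because values of this same contrast chose them, the differences of the members between the groups are given as a description, with no test. Of the 5, 4 had a row among the 23886 gene identifiers of the series, Arrdc4 is not analysed here, and 3 (Arrdc1, Arrdc2 and Arrdc3) passed the filter on low values, which asked for 1 FPKM or more in 3 or more of the 6 libraries. FPKM is the number of reads scaled to gene length and to the reads of the library.

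Alpha-arrestins carry an arrestin fold like the beta-arrestins, followed in most members by a tail with PPxY motifs that bind the WW domains of NEDD4-family ubiquitin ligases. They bring these ligases to receptors and transporters at the cell surface and in endosomes, which are then ubiquitinated and sorted for degradation. Txnip also binds thioredoxin and restrains glucose uptake, and in liver cells its gene is known to be switched on by glucose through the factors MondoA and ChREBP. Arrdc3 is known for the control of energy expenditure in mice, and for the sorting of integrin beta 4 in human breast cancer cells.

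The series holds poly(A)-selected RNA sequencing of AML12, a hepatocyte line made from the liver of mice that carry a human TGF-alpha transgene. The 3 control libraries (Control 2, 3 and 4) came from untreated AML12 cells, and the 3 SMF libraries (SMF 1, 2 and 3) from AML12 cells kept under a magnetic field that is constant in time. The sources used here do not give the field strength, the exposure time or whether the libraries came from separate cultures, so p-values measure only the spread between these samples, which may be technical. All 6 libraries come from 1 cell line.

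Library totals ran from 15514530 to 18200516 reads and overlapped between the groups. Of 13 hepatocyte markers with a row, 9 were above the filter, and their summed level was 3648 to 3840 FPKM in untreated cells and 3823 to 4028 in SMF libraries. Most of that sum came from the keratins Krt8 and Krt18, which bile duct cells share, at 1921 and 1584 FPKM in controls. Hnf4a, the master factor of hepatocytes, stood at 91.6 FPKM and Alb, albumin, at 29.2 in controls, while Apoa2 was listed at 0 in every library and Cps1, the first enzyme of the urea cycle, averaged 0.0033 FPKM in SMF libraries and was listed at 0 in controls. Bile duct markers were abundant too, with Krt19 at 1063 and Spp1 at 861.6 FPKM in controls, although Epcam averaged 0.0089. The bile duct list summed to 1949 to 2064 FPKM in untreated cells and 1968 to 2125 in SMF libraries. Lists of stellate cell, leukocyte and endothelial markers summed to at most 1.92, 4.33 and 0.169 FPKM in any library. In bulk RNA, fewer cells that express a gene and less of its RNA per cell cannot be told apart.

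Arrdc3 (ENSMUSG00000074794) was the member that separated the groups. It measured 3.18 FPKM in Control 2, 3.21 in Control 3 and 3.45 in Control 4, from 331, 366 and 368 reads. In the SMF libraries it measured 1.88, 1.99 and 2.11 FPKM in SMF 1, 2 and 3, from 183, 215 and 238 reads. Every SMF library lay below every control, with no overlap. The means were 3.28 ± 0.15 and 1.99 ± 0.12 FPKM (SD, n = 3), a ratio of 0.608. On the log2(FPKM + 1) scale, which is the scale of all log2 differences here unless another is named and which understates the change of low genes, SMF minus control was -0.52 with a standard error of 0.075. From the summed reads, 1065 in controls and 636 in SMF libraries, the ratio per library total was 0.61, with an exact 95% interval of 0.552 to 0.673 that covers counting error only.

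**Figure D1:**
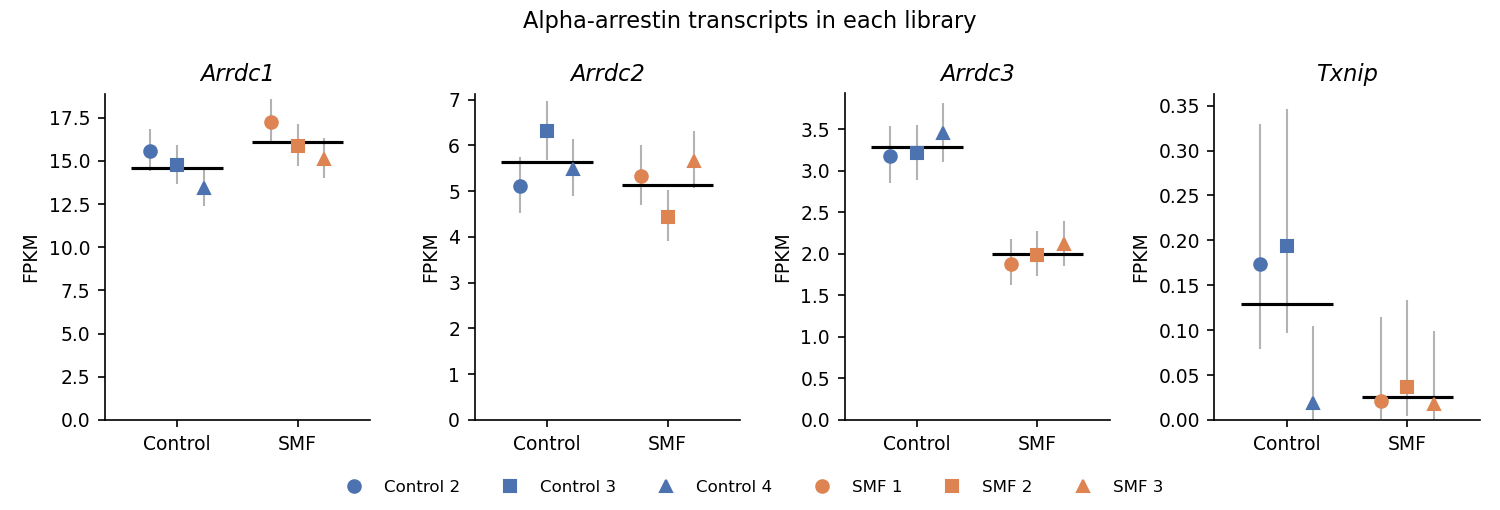
FPKM of each alpha-arrestin (vertical axes, linear from 0, a separate scale for each gene) in the 3 control and 3 SMF libraries; points are libraries, horizontal lines are group means and grey bars are exact 95% Poisson intervals of the reads, which cover counting error only. Arrdc3 lies at 3.18 to 3.45 FPKM in untreated cells and 1.88 to 2.11 in SMF libraries, while the groups overlap for Arrdc1, Arrdc2 and Txnip.

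The libraries within each group lay close together for Arrdc3. Their SD was 0.147 FPKM in untreated cells and 0.116 in SMF libraries, where counting of that many reads alone would give 0.174 and 0.137. The pooled SD within groups was 0.052 on the log2 scale, against a median of 0.098 for the 2069 tested genes whose control mean was within 1.5-fold of that of Arrdc3. A smaller SD was found for 23.1% of all tested genes. The contrast chose Arrdc3, which can favour a gene with a small spread, so nothing is read from these comparisons. The standard error given above is that of limma, which draws the variance of each gene towards that of genes of like level, and so does not rest on the close agreement of these libraries alone.

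Among the 11114 genes tested with limma, Arrdc3 had the 50th lowest log2 difference. No gene, and so none of the 3 tested members, passed an adjusted p of 0.05 in that fit (0%; 1998 genes, or 18% of those tested, were below 0.05 unadjusted). With limma-voom on the whole reads recovered from the FPKM, 268 genes were called lower and 242 higher (2.18%), together 4.59% of those tested, and Arrdc3 was the 1 member of 3 called, in the lower direction (2.41% of tested genes). Groups without overlap, with SMF lower, were found for 12.7% of tested genes, Arrdc3 among them. The contrast chose Arrdc3, so nothing is read from these counts.

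The difference of Arrdc3 stands on a background that moved with gene length and base composition. Arrdc3 is long (6266 bases of exons) and poor in G and C (40.9%). Of the 539 tested genes with a length of 4700 to 7832 bases and 37.9 to 43.9% GC, 470 were below 0, with a median of -0.10, against a median of -0.01 over all tested genes. When a loess trend on GC content and gene length was removed from each library, Arrdc3 stood at -0.41 and ranked 108 from the lowest. Arrdc3 lay below the median of genes of like composition, but the contrast chose it for its low value, so nothing is read from that. The part of library composition in its difference was not tested.

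**Figure D2:**
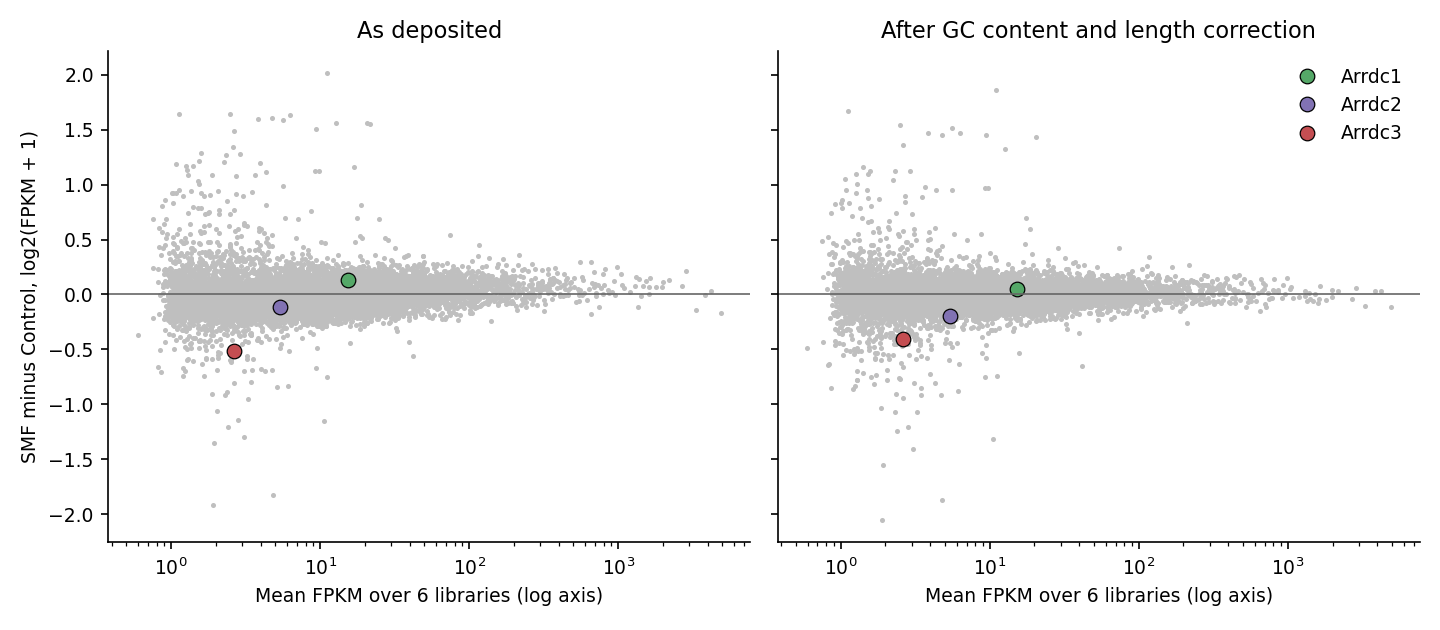
Difference between SMF and control libraries on the log2(FPKM + 1) scale (vertical axis) against mean FPKM over the 6 libraries (horizontal log axis) for all tested genes, in grey, before correction (left) and with it (right), with the 3 tested alpha-arrestins coloured. Arrdc3 moves from -0.52 to -0.41, Arrdc2 from -0.11 to -0.19 and Arrdc1 from 0.13 to 0.05.

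Arrdc1 (ENSMUSG00000026972), which also recruits the budding protein Tsg101 and drives the release of small vesicles from the plasma membrane, was the most abundant member. It measured 15.6, 14.7 and 13.5 FPKM in Control 2, 3 and 4 and 17.2, 15.9 and 15.1 in SMF 1, 2 and 3. SMF 1 and SMF 2 lay above every control and SMF 3 lay between Control 3 and Control 2, so the groups overlapped. The means were 14.6 ± 1.07 and 16.1 ± 1.07 FPKM (SD, n = 3), with a log2 difference of 0.13 and a standard error of 0.067, opposite in sign to that of Arrdc3. That sign was not kept in every setting. The difference was 0.05 with the composition correction, and -0.02 with that correction and a block on replicate number. The difference in the block fit rests on Control 2 and 3 and SMF 2 and 3 only, since Control 4 and SMF 1 share no number with the other group.

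Arrdc2 (ENSMUSG00000002910), a less studied member that is known as a glucocorticoid-induced transcript, measured 5.11, 6.31 and 5.49 FPKM in the controls. The SMF libraries gave 5.32, 4.44 and 5.66 FPKM. The lowest value was in SMF 2 and the highest in Control 3, with the other 4 libraries interleaved. Means of 5.63 ± 0.61 and 5.14 ± 0.63 FPKM (SD, n = 3) gave a log2 difference of -0.11 with a standard error of 0.096, and -0.19 once corrected for GC content and gene length. The spread within groups was wider than for Arrdc3: the SD of 0.614 and 0.632 FPKM compares with 0.317 and 0.307 from counting alone, and 84.6% of tested genes had a smaller pooled SD on the log2 scale.

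Txnip (ENSMUSG00000038393) was close to the limit of detection and was not tested. Its reads numbered 9, 11 and 1 in Control 2, 3 and 4, and 1, 2 and 1 in SMF 1, 2 and 3, which is 0.174, 0.194 and 0.0188 FPKM against 0.0206, 0.0371 and 0.0178. Control 2 and Control 3 held 20 of the 21 control reads, and Control 4 lay among the SMF libraries. The ratio of SMF to control reads, 4 against 21, was 0.194 per library total, with an exact 95% interval of 0.0485 to 0.576 that covers counting error and not the gap between Control 4 and the other controls. Counts this low do not show whether Txnip differed in the direction of Arrdc3. The exons of Txnip share 606 bases with Gm15441, a gene on the opposite strand, and strand was not stated to be used in counting; Gm15441 had 1 read in Control 3 and was listed at 0 in the other libraries.

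Arrdc5, the remaining alpha-arrestin, was listed at 0 in all 6 libraries, where 3 reads would have been 0.156 to 0.183 FPKM. The order of levels, Arrdc1 above Arrdc2 above Arrdc3 above Txnip, was the same in all 6 libraries, and neighbours in that order did not overlap within either group. The gap between Arrdc2 and Arrdc3 was 5.11 against 3.45 FPKM at its narrowest in controls and 4.44 against 2.11 in SMF libraries.

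Across the 6 libraries, Pearson's r of log2(FPKM + 1) was 0.45 between Arrdc3 and Arrdc2, 0.59 between Arrdc3 and Txnip and -0.76 between Arrdc3 and Arrdc1. These are descriptions over 6 points that fall into the study's own groups, with differing library totals. None of the other members thus showed the group separation of Arrdc3, whose libraries alone did not overlap; a difference between members in their response was not tested, since the contrast chose Arrdc3.

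The promoters of Arrdc3 and Txnip are shown because they are the member that separated the groups and the member best known as a target of glucose-sensing factors. Sequences are the 250 bases upstream of the transcript start in RefSeq on build GRCm38.p6, in which all 4 members with a row were found. RefSeq lists 3 starts for Arrdc3, of which the most upstream is printed (chr13:80883134-80883383, plus strand), and 1 for Txnip (chr3:96557707-96557956, plus strand). Capitals mark CCAAT (the NF-Y box), GTAAACA (a FOXO motif) and a pair of CACGAG boxes 5 bases apart, the known carbohydrate response element of Txnip, each searched on both strands, with CACGTG (the E-box) searched in the same way.
Arrdc3: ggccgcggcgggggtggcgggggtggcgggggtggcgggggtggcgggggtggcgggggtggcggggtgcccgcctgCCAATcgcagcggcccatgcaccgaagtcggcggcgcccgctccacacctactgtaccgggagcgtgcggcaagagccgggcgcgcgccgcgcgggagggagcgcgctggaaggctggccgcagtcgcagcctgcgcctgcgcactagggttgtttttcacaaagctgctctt
Txnip: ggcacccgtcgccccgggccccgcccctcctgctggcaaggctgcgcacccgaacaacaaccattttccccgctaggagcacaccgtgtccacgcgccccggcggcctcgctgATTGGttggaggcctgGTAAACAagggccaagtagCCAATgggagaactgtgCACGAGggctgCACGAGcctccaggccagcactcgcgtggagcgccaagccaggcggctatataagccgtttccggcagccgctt
The printed Arrdc3 window is 76% G and C, more than 96.7% of the 32817 windows of the same length, and holds 1 CCAAT box on the plus strand. Of the windows of the other Arrdc3 starts, that at 80885845-80886094 is 71.6% G and C with 0 CCAAT boxes. The window at 80883172-80883421 is 70.8% G and C with 1 CCAAT box. It overlaps the printed window, and its CCAAT box is the same one. Txnip holds 1 GTAAACA, 2 CCAAT boxes and the CACGAG pair. The motifs do not overlap each other in either printed window. CCAAT was present in 33.8% of all windows, GTAAACA in 3.16% and CACGTG in 6.02%, the last in none of the windows of the 4 members. The CACGAG pair, searched for after the Txnip sequence had been read, occurred in 1 window of 32817, that of Txnip. A match is a stretch of letters and not evidence of binding.

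Outside the family, 9 lists of related genes held 87 tested genes; their values did not choose the members, but the lists were drawn up with earlier results of this contrast known, so their tests are not independent of it. By limma none was called higher or lower (16 below 0.05 unadjusted), as for all genes. By limma-voom 3 were higher and 3 lower, 6.9% of 87 against 4.59% of all tested genes. Groups did not overlap for 25 of the 87, or 28.7%, against 23.7% of all tested genes. The median log2 difference of the 87 was -0.04, against -0.01 over all tested genes. Of the 87, 54 were below 0 and 33 above, where 5925 of the 11114 tested genes were below 0 and 5189 above. The splits of single lists given below are to be read beside that share.

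**Figure D3:**
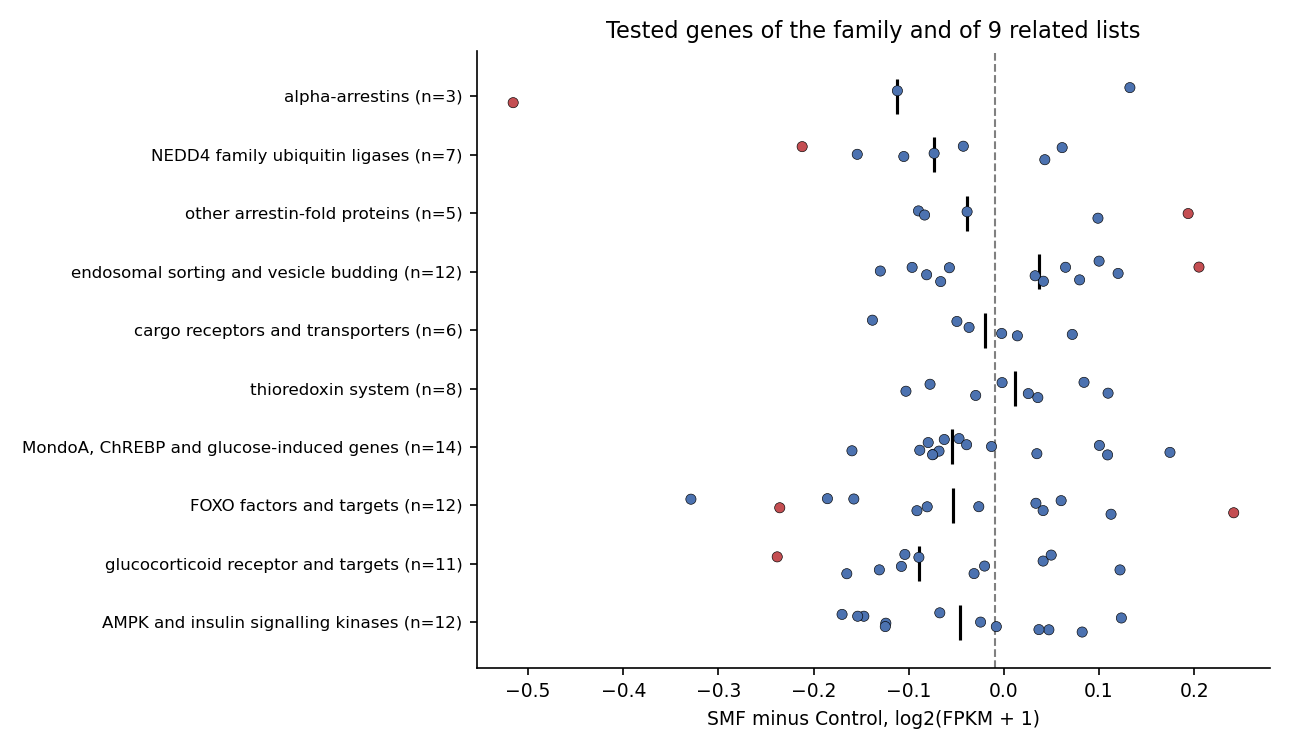
Log2(FPKM + 1) difference, SMF minus control (horizontal axis), for the tested alpha-arrestins and the tested members of 9 related lists; black bars are list medians, the dashed line is the median of all tested genes at -0.01, and red points are called by limma-voom at an adjusted p below 0.05. Arrdc3, which this contrast chose, lies at -0.52, and the list genes lie between -0.33 and 0.24. Its place outside that range follows from the choice and is not a result.

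Of 7 tested NEDD4-family ligases, the partners of the PPxY tails, 5 were below 0 and 2 above (median -0.07, and 0.02 once corrected for GC content and gene length). Nedd4, the most abundant, measured 125, 122 and 123 FPKM in untreated cells and 108, 121 and 114 in SMF libraries, all below the controls (log2 difference -0.11, and -0.011 once corrected; limma adjusted p = 0.268). Smurf1 measured 20.7 ± 1.21 and 21.4 ± 1.32 FPKM. Smurf2, a ligase of TGF-beta receptors, was at 11.8 ± 1.2 and 9.98 ± 0.28 FPKM, lower in 3 of 3 SMF libraries; it fell by limma-voom (adjusted p = 0.0498; log2 difference -0.21, and -0.14 corrected) and did not pass limma (adjusted p = 0.203) or any of 17 further alternatives (0.144 to 0.749).

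Among 5 tested proteins with a related fold, 2 were above 0 and 3 below. Arrb2, beta-arrestin 2, which ends signalling of many G protein-coupled receptors, measured 25.2, 27.2 and 25.9 FPKM in untreated cells and 31.3, 28.4 and 30.3 in SMF libraries, above every control. It rose by limma-voom (adjusted p = 0.049), with a log2 difference of 0.19 that was 0.12 once corrected, and did not pass limma (adjusted p = 0.164) or the other alternatives (0.0804 to 0.729). Its relative Arrb1 was at 16.9 ± 0.34 and 15.8 ± 0.63 FPKM, and Vps26a, of the retromer complex, at 36.9 ± 2.57 and 35.8 ± 1.26.

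The 12 tested genes of endosomal sorting and vesicle budding were split, 7 above 0 and 5 below. Vps28, a subunit of the complex that Tsg101 belongs to, measured 28.1, 28.2 and 27.1 FPKM in untreated cells and 31.8, 31.2 and 33.7 in SMF libraries. It rose by limma-voom (adjusted p = 0.0403; log2 difference 0.21, and 0.14 corrected) and not by limma (adjusted p = 0.148) or the other alternatives (0.0804 to 0.653). Chmp4b was at 61.9 ± 2.08 and 65.4 ± 2.62 FPKM, Hgs at 50.6 ± 2.97 and 54.3 ± 1.02, and Tsg101 at 33.7 ± 1.6 and 34.7 ± 0.4. Of 6 tested surface proteins reported as alpha-arrestin cargo, none was called by either test (0 below 0.05 unadjusted). Among them were the glucose transporter Slc2a1, at 38.6 ± 3.61 and 37.2 ± 1.85 FPKM, and Itgb4, integrin beta 4, at 18.5 ± 0.73 and 19.5 ± 0.73.

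In the thioredoxin system, 4 of 8 tested genes were above 0 and 4 below, none called by either test (1 below 0.05 unadjusted). Txn1, the thioredoxin that Txnip binds, was at 181.9 ± 3.5 and 186.5 ± 3.45 FPKM, and Prdx1, a thioredoxin-dependent peroxidase, at 266.9 ± 4.35 and 266.6 ± 7.71. Transcripts of the glucose-sensing factors were present although Txnip was nearly absent: Mlx measured 16.9 ± 0.81 and 15.9 ± 0.24 FPKM. Mlxip, which encodes MondoA, measured 7.64, 8.01 and 8.34 FPKM in untreated cells and 6.6, 7.55 and 7.03 in SMF libraries, below every control (log2 difference -0.16, and -0.15 corrected; limma adjusted p = 0.24, not called by limma-voom at 0.105). Mlxipl, which encodes ChREBP, was at 2.56 ± 0.45 and 2.63 ± 0.066. These 3 and 11 glucose-induced genes, 14 in all, gave 4 above 0 and 10 below, none called by either test (2 below 0.05 unadjusted). The most abundant were Scd1, a fatty acid desaturase, at 164.5 ± 4.43 and 157.5 ± 5.64 FPKM, and Acly, ATP citrate lyase, at 67.5 ± 3.04 and 65.2 ± 0.73.

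FOXO factors, which insulin holds inactive, and their targets numbered 12 tested, with 5 above 0 and 7 below. Irs2, an adaptor of the insulin receptor, measured 15.3, 13.9 and 14.7 FPKM in untreated cells and 12.3, 12.7 and 11.8 in SMF libraries. It fell by limma-voom (adjusted p = 0.0158), with a log2 difference of -0.24, and -0.27 once corrected for GC content and gene length, and did not pass limma (adjusted p = 0.148) or the other alternatives (0.0824 to 0.542). Gadd45a, a stress-induced growth arrest gene, rose by limma-voom (adjusted p = 0.0225; log2 difference 0.24, and 0.14 corrected), from 37.6 ± 0.88 to 44.7 ± 2.66 FPKM, higher in 3 of 3 SMF libraries, and did not pass limma (adjusted p = 0.148) or the other alternatives (0.0917 to 0.721). Bnip3, a mitophagy receptor, spread widely, with 49.4 FPKM in Control 2 against 28.7 and 33.4 in Control 3 and 4, and 30.3, 23.1 and 33.4 in SMF libraries. Igfbp1 measured 0.0395, 0.108 and 0 FPKM in Control 2, 3 and 4 and was listed at 0 in SMF libraries. These levels are too low for a difference to be read. Pck1 was listed at 0 throughout.

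Of 11 tested genes of the glucocorticoid response, 3 were above 0 and 8 below. The receptor itself, Nr3c1, measured 15.4, 13.5 and 14.7 FPKM in untreated cells and 12.1, 13 and 11.4 in SMF libraries. It fell by limma-voom (adjusted p = 0.0181), with a log2 difference of -0.24, and -0.15 corrected, and did not pass limma (adjusted p = 0.169) or the other alternatives (0.0874 to 0.651). No other gene of this list passed limma-voom, among them the metallothioneins Mt1, at 171.6 ± 6.36 and 177.2 ± 18.3 FPKM, and Mt2, at 150.1 ± 0.5 and 155.5 ± 7.7. Of 12 tested genes for kinases of AMPK and insulin signalling, with regulatory subunits of AMPK included, 4 were above 0 and 8 below. None was called by either test (2 below 0.05 unadjusted). Akt1 was at 86.7 ± 2.07 and 91.8 ± 0.61 FPKM, and Prkag1, an AMPK subunit, at 64.7 ± 4.46 and 70.5 ± 2.64.

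The genes with the pattern most like that of Arrdc3 over the 6 libraries, by Pearson's r of log2(FPKM + 1) among 9094 tested genes with a mean of at least 2 FPKM, were Rab7, Ttc21b, Pabpc1, Nedd1 and Sltm, with r of 0.984 to 0.998 over 6 libraries. Rab7, a GTPase of late endosomes, had the highest r, with 149.8, 149.6 and 150.3 FPKM in untreated cells and 143.2, 143.9 and 144.7 in SMF libraries, a log2 difference of -0.06. Nedd1, a centrosome protein outside the NEDD4 family, had the widest gap of the 5 on the log2 scale (-0.34), with 9.65 ± 0.35 and 7.4 ± 0.31 FPKM. The most opposed patterns were those of Mypop, Mvp, Ankrd9, Ctsb and Stoml2, with r of -0.997 to -0.987. Ankrd9 was at 4.58 ± 0.25 FPKM in untreated cells and 5.95 ± 0.15 in SMF libraries. A gene that separates the groups tightly scores high on this measure whatever its size of change, and 64 genes had an r above 0.95. For Txnip the nearest were Shisa4, Rnps1, Mboat7, Rap1gds1 and Zfp438 (r of 0.967 to 0.987), which share high values in Control 2 and Control 3; Shisa4 measured 24.1 and 24.2 FPKM there and 21.8 to 22.2 in the other 4 libraries.

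Under 17 alternative settings Arrdc3 kept a negative difference in all 17, from -0.72 to -0.24, each on the scale of its own setting. Arrdc2 was below 0 in all 18 of its settings, from -0.20 to -0.03, and Arrdc1 above 0 in 17 of 18. Settings that change only the filter or the variance model cannot move a log2 difference, and repeat the reported value in these tallies. The contrast chose Arrdc3, so its tally is a description only. The lowest and highest values of Arrdc3 came with limma-voom and a pseudocount of 5, so they follow from how low values are treated on the log scale.

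**Figure D4:**
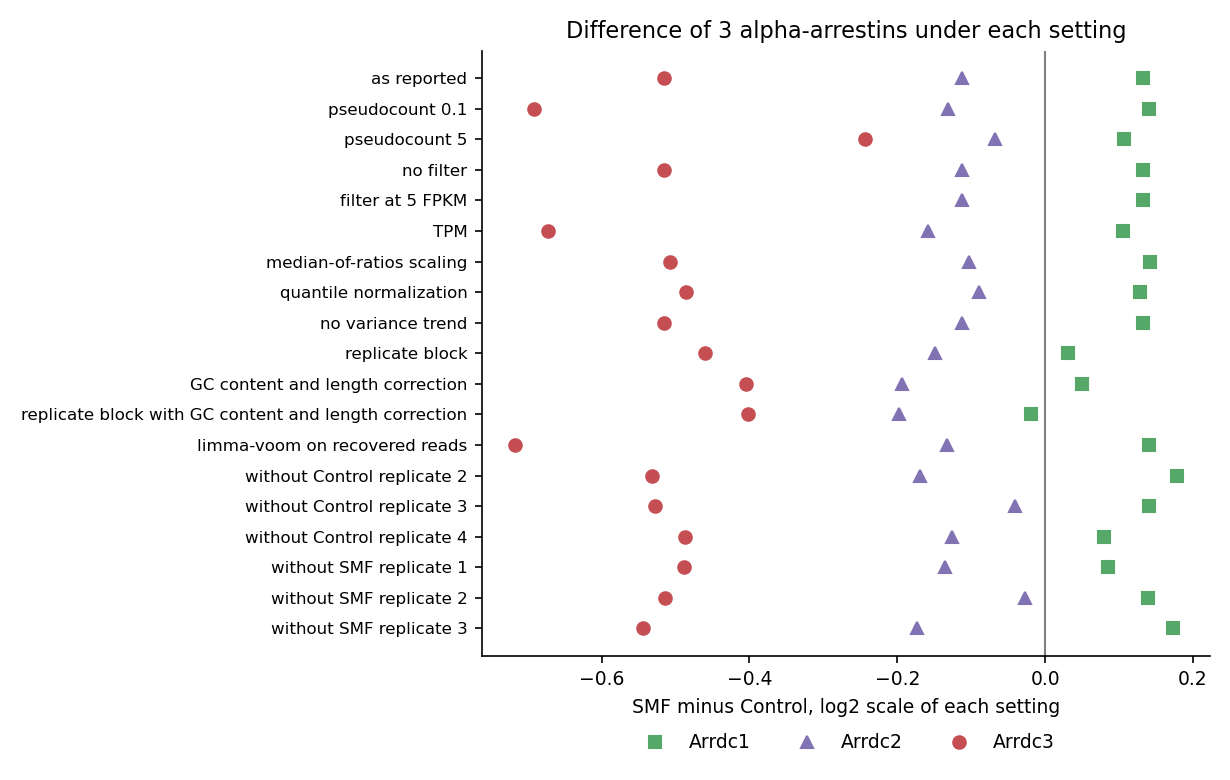
Difference between SMF and control libraries (horizontal axis, on the log2 scale of each setting) for Arrdc1, Arrdc2 and Arrdc3 as reported and under each alternative (vertical axis). Arrdc3 lies between -0.72 and -0.24, left of Arrdc2 and Arrdc1 in every setting in which it is shown; it falls below the filter at 5 FPKM and has no point there.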

How the data were processed

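Poly(A) RNA of AML12 cells was sequenced in 6 libraries, 3 per group, grouped and numbered by title. The deposited tables hold FPKM for 23886 Ensembl identifiers, calculated by the authors, 1 file per library. HISAT2 2.1.0, Bowtie2 2.2.3 and build GRCm39 are named, with no role or order, per the submitters' processing notes; the sources used here do not give the counting tool, annotation release, strand setting or handling of multi-mapping reads. Symbols, exon lengths and GC content came from GENCODE M21 (build GRCm38), which named 23521 identifiers.

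Whole reads were recovered by multiplying FPKM by exon length and library total, where the total was the commonest value of 1 read. For 98.1% of 21748 genes with an M21 length, all 6 values came out whole within 0.02 reads; for 674 others the smallest length that gave whole reads was used. Chi-square per degree of freedom between replicate libraries was 3.33 to 6.32, so no library was counted as a copy of another.

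Values on the log2(FPKM + 1) scale were tested by limma 3.58.1 (R 4.3.3, with a variance trend) over the 11114 genes that reached 1 FPKM in 3 or more libraries, two-sided, with Benjamini-Hochberg adjustment at 0.05. Alternatives were other pseudocounts, filters and scalings, a replicate block, a loess correction (span 0.3) for GC content and length, limma-voom on the recovered reads, and each library left out. Both tests were also run on simulated reads, drawn with the same dispersion for every gene and no trend on GC content or length. The real libraries differ from that, and nothing is read here from the simulation. Members, lists and tests were chosen with earlier results of these data known. Named genes were the members, Arrdc5, the 2 most abundant of each list, and the 5 genes nearest or most opposed to Arrdc3 (nearest only for Txnip); genes called by limma-voom, and other list genes, were named after their values were seen. Promoters are RefSeq sequences. A cargo gene of the lists is not reported here. Poisson and binomial intervals are exact and cover counting error only. Figures used matplotlib 3.10.9.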

Additional observations from a re-analysis of the deposited data

How the results depend on the processing

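With any 1 library left out, Arrdc3 stayed between -0.54 and -0.49, Arrdc2 between -0.17 and -0.027, Arrdc1 between 0.08 and 0.18 and Txnip between -0.21 and -0.093; genes called over all tested numbered 0 to 2 higher and 0 to 1 lower (above 0 without Control 4, SMF 1 or SMF 3), and list genes called 0. Arrdc3 moved by more than its spread between replicates at -0.69 with a pseudocount of 0.1, -0.24 with a pseudocount of 5, -0.67 as TPM, -0.41 with the GC content and length correction and -0.72 by limma-voom on recovered reads, and also under both fits with the replicate block, given below. Txnip stood at -0.76, -0.029, -0.37 and -1.59 with those pseudocounts, TPM and limma-voom, values set by the constant added to 1 to 11 reads; the correction was not applied to it. In TPM the pseudocount of 1 weighs less, and the median of all genes was -0.04. No gene was called by limma, but 6 higher and 2 lower were with the filter at 5 FPKM, where fewer genes are tested, and 242 higher and 268 lower by limma-voom, 3 and 3 of them in the lists; the cause was not tested. Calls under all other settings, leaving out a library and the replicate block aside, numbered 0.

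The replicate block gave 13 genes higher and 6 lower, and with the correction 3 higher and 0 lower; Arrdc3 stood at -0.46 and -0.40 and Arrdc1 at 0.031 and -0.020 under these fits. Deviations from group means correlated at 0.058 for number 2 and 0.046 for number 3, so the numbers are not taken to pair the libraries. Arrdc3 has no value with the filter at 5 FPKM. Txnip, at 1 to 11 reads per library, is too low for its difference to be read.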
